A study of Mus musculus with 6 samples.

Results

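The 4 heavy chain joining genes IGHJ1 to IGHJ4 are short gene segments, and each rearranged antibody heavy chain ends its V domain with one of them. They were followed here through every clonotype of the 2 heavy chain libraries, grouped by the best J hit that the clonotype tables give. CDR3 is the loop that spans the joints between V, D and J, from a conserved cysteine to the tryptophan of J, and each different CDR3 nucleotide sequence that the aligner assembled from reads is 1 clonotype. All 14575 heavy chain clonotypes, out of 18182 over the 6 libraries of the series, carried 1 of these 4 J genes, out of 11 J genes found for all chains. IGHJ genes were found in 0 clonotypes of the 4 light chain libraries. The iB-μMT mouse gave 7794 of the heavy chain clonotypes and the B6 mouse gave 6781. The best J hit was never tied, so every clonotype has 1 J gene.

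Both libraries came from 100000 naïve follicular (FO) B cells sorted from the spleen, 1 library per mouse. The iB-μMT mouse was a μMT recipient (B6.129S2-Ighmtm1Cgn/J), which lacks its own mature B cells because Ighm is disrupted. Recipients were 8 to 10 weeks old, were irradiated with 5 Gy, and then received hematopoietic progenitors (iHPCs). The iHPCs were grown from iR9X2-ESCs, a C57BL/6 embryonic stem cell line with Runx1, Hoxa9 and Lhx2 under a doxycycline-inducible promoter in Rosa26 and a GFP reporter in Hipp11. Doxycycline at 1 mg/mL was given in the drinking water, and the cells were taken 4 weeks after transplantation. The B6 mouse was a C57BL/6 mouse without a transplant, and its age is not given in the sources used here. Transplantation, irradiation, doxycycline and the source of the cells go together in the iB-μMT mouse, and their parts in any difference from the B6 mouse cannot be told apart. IGHM, the constant gene of IgM, was found in 99.9% of the clonotypes with a constant gene hit in either mouse. The mice are called iB-μMT and B6 from here on.

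A developing B cell first joins a D gene to a J gene and then a V gene to the D-J unit. The RAG recombinase cuts each segment at its edge, the opened ends can lose bases to nucleases, and terminal deoxynucleotidyl transferase (TdT) can add bases that no gene encodes. Where the ends carry the same few bases, they can be joined on that stretch, and the shared bases then appear once. The 4 J genes lie in a row on chromosome 12 of GRCm38.p6 (mm10), on the minus strand, between the D genes and the constant gene Ighm. Ighj1 spans chr12:113429781-113429833, Ighj2 spans chr12:113429468-113429515, Ighj3 spans chr12:113429085-113429132 and Ighj4 spans chr12:113428514-113428567, each a J segment in the RefSeq annotation. Ighd4-1, the D gene closest to them, ends 694 bases before Ighj1, and Ighd1-1 lies 51631 bases further upstream. The distances between neighbouring J genes are 265, 335 and 517 bases, and Ighm starts 5783 bases after Ighj4.

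The germline bases that each J gene can give to CDR3 set its length and its end. They were read from the deposited CDR3 sequences whose J alignment held no mismatch, and are shown 5′ to 3′ with the codon of the conserved tryptophan in capitals.
IGHJ1: ctactggtacttcgatgtcTGG
IGHJ2: actactttgactacTGG
IGHJ3: cctggtttgcttacTGG
IGHJ4: attactatgctatggactacTGG
IGHJ1 and IGHJ4 can give 22 and 23 bases, and IGHJ2 and IGHJ3 give 17 bases each. Their whole codons encode YWYFDVW for IGHJ1, YFDYW for IGHJ2, WFAYW for IGHJ3 and YYAMDYW for IGHJ4.

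The D genes shown here end in bases that some of the J genes also carry at or near their start. The following pairs are examples of joints on shared bases, with the bases that D and J share in capitals. They hold only part of the joints of each J gene.
IGHD1-1 toward IGHJ1: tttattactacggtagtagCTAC
IGHJ1 toward IGHD1-1: CTACtggtacttcgatgtctgg
IGHD2-8 toward IGHJ2: tctactatggtaACTAC
IGHJ2 toward IGHD2-8: ACTACtttgactactgg
IGHD1-1 toward IGHJ4: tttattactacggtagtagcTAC
IGHJ4 toward IGHD1-1: atTACtatgctatggactactgg
IGHD2-3 toward IGHJ3: tctatgatggttaCTac
IGHJ3 toward IGHD2-3: cCTggtttgcttactgg
IGHD4-1 toward IGHJ1: ctaactgggAC
IGHJ1 toward IGHD4-1: ctACtggtacttcgatgtctgg
Between the last 8 bases of D and the first 8 of J, the longest run that IGHJ3 shares with IGHD1-1, IGHD2-3, IGHD2-5 or IGHD2-8 is 2 or 3 bases. For IGHJ1 that run is 4 bases, for IGHJ2 it is 4 or 5, and for IGHJ4 it is 3 to 6. IGHD4-1, the shortest of the D genes shown, ends in GGGAC and shares its last AC with IGHJ1.

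All 4 J genes were used in both mice in the same order, IGHJ2 most and IGHJ1 least. In the iB-μMT mouse IGHJ2 took 33.3% of clonotypes (2594), IGHJ4 29.7% (2312), IGHJ3 22.8% (1779) and IGHJ1 14.2% (1109). In the B6 mouse the same genes took 32.8% (2221), 27.1% (1836), 23.7% (1607) and 16.5% (1117). The share of IGHJ1 was lower in iB-μMT by 2.24 percentage points (95% Newcombe interval of the difference -3.42 to -1.07), and that of IGHJ4 was higher by 2.59 points (1.12 to 4.05). For IGHJ2 (0.53 points, -1.003 to 2.06) and IGHJ3 (-0.87 points, -2.25 to 0.50) the interval included 0. The shares of reads were close to those of clonotypes: 35.0%, 29.1%, 22.3% and 13.6% for IGHJ2, IGHJ4, IGHJ3 and IGHJ1 in iB-μMT and 33.0%, 27.9%, 23.0% and 16.1% in B6. Clonotypes of the 4 genes were similarly deep within a library, with a median of 90 to 101 reads in iB-μMT and 171 to 189 reads in B6. With 1 library per group no difference has a replicate check, no p-value is given, and every interval covers counting error over clonotypes only. The reads were amplified and carry no molecular identifier, so they do not count molecules, and each clonotype was counted once.

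The J genes lost fewer bases in iB-μMT, all 4 of them. By the positions the aligner deposited, IGHJ1 had lost 1.45 ± 2.00 bases (SD over clonotypes, n = 1109) from its 5′ end in iB-μMT and 2.30 ± 2.83 bases (n = 1117) in B6. IGHJ2 had lost 2.27 ± 3.08 against 3.17 ± 3.56 bases, and IGHJ3 2.29 ± 2.55 against 2.81 ± 2.92 bases. IGHJ4 had lost the most in both, 2.65 ± 2.58 against 4.15 ± 3.47 bases. The spread among clonotypes was wide and overlapped throughout, and the means differed by -0.85 (95% interval -1.05 to -0.65), -0.90 (-1.09 to -0.71), -0.52 (-0.71 to -0.34) and -1.50 bases (-1.69 to -1.31) for IGHJ1 to IGHJ4. By these positions IGHJ1 lost less than each other J gene within a library and IGHJ4 lost more, while IGHJ2 and IGHJ3 of iB-μMT were not apart (difference -0.02, -0.19 to 0.15).

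**Figure D1:**
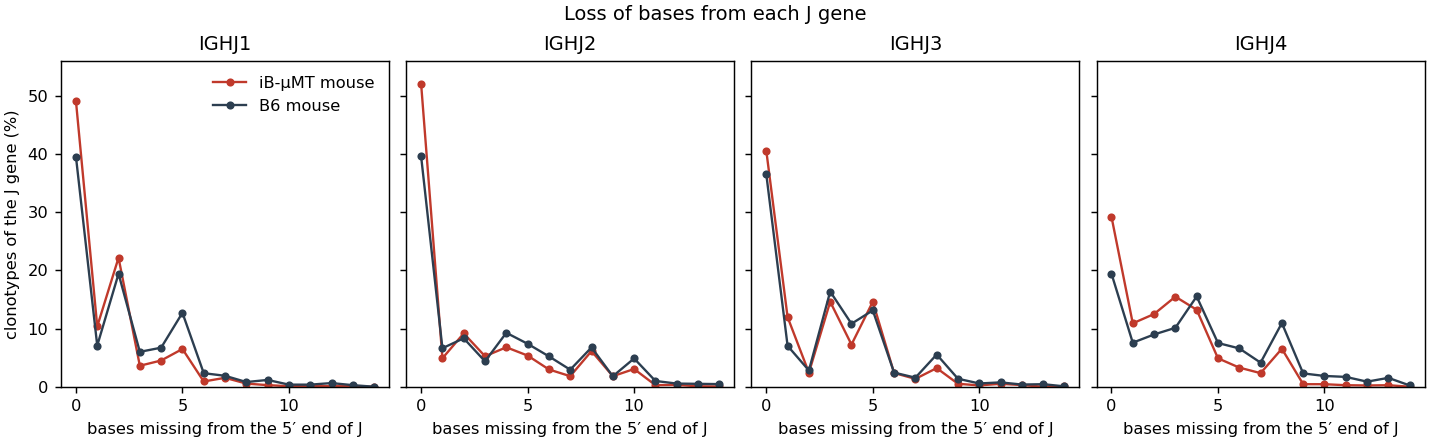
Share of the clonotypes of each J gene (vertical axis, %) by the number of bases missing from the 5′ end of J as the aligner placed it (horizontal axis, up to 14 bases), iB-μMT mouse in red and B6 mouse in dark blue. Each J gene has its own set of frequent end points, and the point at 0 is higher in iB-μMT for all 4, for example 52.1% against 39.6% for IGHJ2.

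The ends fell at preferred places, and the mice had a commonest loss in common for IGHJ1 and IGHJ3 but not for IGHJ2 and IGHJ4. For IGHJ1 a loss of 2 bases was the commonest loss, at 22.2% of clonotypes in iB-μMT and 19.4% in B6. The next loss of IGHJ1 differed, 1 base in iB-μMT (10.4%) and 5 bases in B6 (12.7%). IGHJ3 most often lost 3 bases (14.6% and 16.4%) or 5 bases (14.6% and 13.1%). The commonest loss of IGHJ2 was 2 bases in iB-μMT (9.18%) and 4 bases in B6 (9.28%), where 2 bases followed closely (8.33%). That of IGHJ4 was 3 bases in iB-μMT (15.5%) and 4 bases in B6 (15.5%), and 4 bases came next in iB-μMT (13.2%). IGHJ4 had a further peak at 8 bases, smaller in iB-μMT (6.5%) than in B6 (10.9%). The share without any loss was 49.1% against 39.6% for IGHJ1, 52.1% against 39.6% for IGHJ2, 40.6% against 36.5% for IGHJ3 and 29.2% against 19.4% for IGHJ4.

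These counts depend on which bases are credited to J. The aligner's reference carries a palindromic flank before each J gene, so any bases before J that match it, those of D among them, are read as J. In the iB-μMT mouse 26.3% of IGHJ1 clonotypes with a D were credited with 4 or more flank bases, and 70.1% of those had IGHD1-1. In the B6 mouse 26.5% were credited so, and 81.4% of those had IGHD1-1. The mice were less alike for the other J genes. The shares in iB-μMT against B6 were 15.1% against 12.9% for IGHJ2, 4.61% against 6.21% for IGHJ3 and 8.31% against 2.78% for IGHJ4. The J genes were therefore read again as the germline match running back from the tryptophan codon. In this reading 1 mismatch was bridged where at least 5 matching bases lay beyond it. It covers the clonotypes with a D gene whose alignment held no gap. With the bases that D and J share given to J, the mean loss was 2.00 against 3.51 bases for IGHJ1, 2.98 against 4.07 for IGHJ2, 2.505 against 3.12 for IGHJ3 and 3.27 against 4.55 for IGHJ4. With the shared bases given to D, the differences shrank to -0.70 (-0.94 to -0.45), -0.45 (-0.66 to -0.24), -0.48 (-0.67 to -0.28) and -0.62 bases (-0.83 to -0.41). All 3 readings gave a smaller mean loss in iB-μMT for each J gene, but by how much depended on where the shared bases were counted. The share of J without any loss became 36.1% against 16.2% for IGHJ1 (19.9 points, 16.02 to 23.8), 37.6% against 24.6% for IGHJ2 and 35.3% against 28.6% for IGHJ3. For IGHJ4 it became 17.1% against 14.6%, a difference of 2.51 points (0.065 to 4.92).

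The order of the J genes turned with the reading. In B6, IGHJ3 lost fewer bases than IGHJ1 with shared bases given to J (by 0.38 bases, 0.13 to 0.63) and to D (by 0.64 bases, 0.39 to 0.88). In iB-μMT IGHJ1 lost less than IGHJ3 with shared bases given to J (-0.504, -0.70 to -0.31) and more with them given to D (0.42, 0.22 to 0.61). IGHJ4 lost the most in both mice under all 3 readings. By the aligner's positions and within D genes, the difference in J loss between the mice was not seen everywhere: it was 0.18 bases (-0.44 to 0.81) for IGHD4-1 with IGHJ3, -0.44 (-1.12 to 0.24) for IGHD4-1 with IGHJ4 and -0.38 (-0.80 to 0.03) for IGHD1-1 with IGHJ3.

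The D genes joined to each J gene differed between the mice, and in percentage points IGHD4-1 and IGHD1-1 differed most for IGHJ1, IGHJ2 and IGHJ3, and IGHD1-1 and IGHD2-3 for IGHJ4. IGHD4-1 was found in 20.1% of IGHJ1 clonotypes with a D gene in iB-μMT (192 of 956) against 7.36% in B6 (73 of 992), a ratio of 2.73. With IGHJ2 it took 26.4% (588 of 2228) against 13.06% (249 of 1906), and with IGHJ3 18.2% (292 of 1605) against 7.67% (110 of 1434). With IGHJ4 it took 10.01% (200 of 1998) against 9.22% (149 of 1616), a difference of 0.79 points (-1.16 to 2.71). The 3 other differences were 12.7 points (9.71 to 15.8) for IGHJ1, 13.3 points (10.9 to 15.7) for IGHJ2 and 10.5 points (8.18 to 12.9) for IGHJ3, so only the interval of IGHJ4 included 0. Within iB-μMT, the IGHD4-1 share of IGHJ1 was above that of IGHJ4 by 10.1 points (7.28 to 13.01), and within B6 the same gap was -1.86 points (-3.96 to 0.36).

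Seen from IGHD4-1, 15.7% of its 1272 clonotypes in iB-μMT (95% Wilson interval 13.8 to 17.8) had IGHJ4, against 25.6% of its 581 in B6 (22.3 to 29.3). IGHJ2 was its commonest partner in both mice, at 46.2% and 42.9%. IGHD1-1, the D gene with the most clonotypes in both mice, moved the other way: its IGHJ1 share was 19.4% in iB-μMT and 23.8% in B6, and its IGHJ4 share was 30.6% and 25.5%. The IGHD2 genes joined IGHJ4 in 33.7% of their 3407 clonotypes in iB-μMT and 29.1% of their 2623 in B6.

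**Figure D2:**
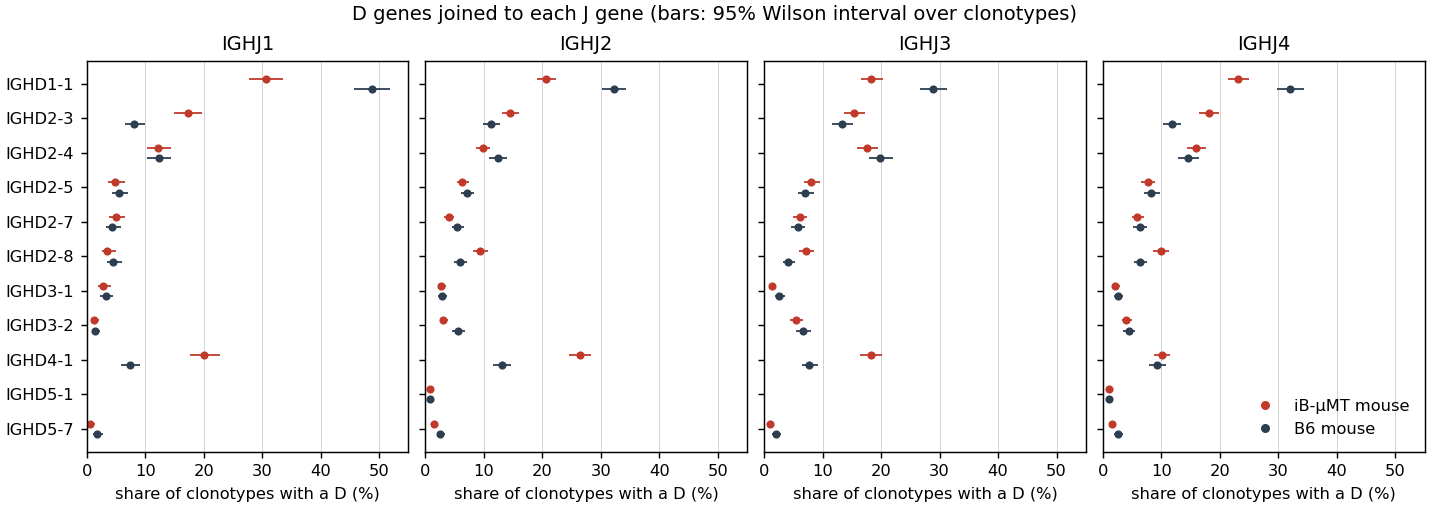
Share of each D gene among the clonotypes with a D gene of IGHJ1 to IGHJ4 (horizontal axis, %), iB-μMT mouse in red and B6 mouse in dark blue, for pairs with at least 20 clonotypes in both mice together. Points are shares and bars are 95% Wilson intervals over clonotypes; IGHD4-1 lies to the right in iB-μMT for IGHJ1 to IGHJ3, and IGHD1-1 lies to the left for all 4 J genes.

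IGHD1-1 was less frequent in iB-μMT with every J gene. It took 30.6% against 48.8% of IGHJ1 clonotypes, 20.6% against 32.2% of IGHJ2, 18.3% against 28.9% of IGHJ3 and 23.1% against 32.1% of IGHJ4. IGHD2-3 was more frequent with IGHJ1 (17.3% against 8.06%, ratio 2.14) and IGHJ4 (18.1% against 11.8%, ratio 1.54), while with IGHJ3 its difference was 2.08 points (-0.42 to 4.56). IGHD2-8 was more frequent with IGHJ2 (9.34% against 5.88%), IGHJ3 (7.17% against 4.11%) and IGHJ4 (9.86% against 6.31%), and with IGHJ1 it took 3.56% against 4.54%. IGHD2-4 took between 9.78% and 17.6% of each J gene in iB-μMT and between 12.3% and 19.9% in B6, with ratios from 0.79 to 1.10. IGHD5-7 was under 3% everywhere and lower with all 4 J genes, with ratios from 0.37 to 0.59.

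Of 42 pairs of a D and a J gene with at least 20 clonotypes in both mice together, 17 (40.5%) differed by more than 1.5-fold in share, 8 higher (19.0%) and 9 lower (21.4%) in iB-μMT. IGHJ1 had 4 of its 10 pairs past that fold, IGHJ2 5 of 11, IGHJ3 5 of 10 and IGHJ4 3 of 11, to be read against the 40.5% of all pairs. Past 2-fold there were 5 pairs, which were IGHD4-1 with IGHJ1, IGHJ2 and IGHJ3, IGHD2-3 with IGHJ1, and IGHD5-7 with IGHJ1, the last one lower. With at least 8 bases of D required, 8 of 34 pairs passed 1.5-fold. The best D hit was tied with another D gene in 17.2% of clonotypes with a D in iB-μMT and 20.1% in B6. IGHD2-5 was tied in all 470 and 425 of its clonotypes, so it stands for a group of D genes, while IGHD4-1 was tied in 24 of 1272 and 26 of 581.

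Bases added between D and J were fewer in iB-μMT for every J gene. By the aligner's positions, IGHJ1 had 0.88 ± 1.53 bases between D and J (SD over clonotypes) in iB-μMT and 1.86 ± 2.28 in B6. IGHJ2 had 1.36 ± 2.06 against 2.44 ± 2.59, IGHJ3 had 1.17 ± 1.67 against 2.24 ± 2.42, and IGHJ4 had 1.21 ± 1.76 against 2.67 ± 2.59. The differences were -0.98 (-1.15 to -0.81), -1.08 (-1.23 to -0.94), -1.07 (-1.22 to -0.92) and -1.47 bases (-1.61 to -1.32). The bases between V and D, at the other joint of the same clonotypes, numbered 3.05 to 3.24 in iB-μMT and 3.99 to 4.02 in B6. Their differences were -0.89, -0.93, -0.77 and -0.94 bases for IGHJ1 to IGHJ4, given without intervals. Each was smaller than the difference between D and J. For IGHJ1 it lay inside the D-J interval and for IGHJ2 just outside, so these 2 are not shown to be apart.

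Joints without any base between D and J were more frequent in iB-μMT for every J gene. By the aligner's positions they made up 64.3% of IGHJ1 joints (615 of 956) against 41.1% (408 of 992), and 53.7% of IGHJ2 joints (1196 of 2228) against 29.6% (564 of 1906). They made up 49.8% of IGHJ3 joints (800 of 1605) against 27.5% (395 of 1434), and 53.0% of IGHJ4 joints (1058 of 1998) against 21.5% (347 of 1616). The differences were 23.2 (18.8 to 27.4), 24.1 (21.1 to 26.97), 22.3 (18.9 to 25.6) and 31.5 points (28.5 to 34.4). By these positions IGHJ1 had the highest share within each mouse, above the next J gene by 10.7 points (6.94 to 14.3) in iB-μMT and by 11.5 points (7.86 to 15.2) in B6. IGHJ4 had the lowest share in B6, but in iB-μMT it was not apart from IGHJ2 (0.73 points between them, -2.28 to 3.74) or IGHJ3 (-3.11 points, -6.38 to 0.17).

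The share was also compared within IGHD1-1, within the pooled IGHD2 genes and within IGHD4-1. Within IGHD1-1 the share of such joints was 75.8% against 52.1% with IGHJ1, 63.0% against 36.2% with IGHJ2, 53.7% against 29.0% with IGHJ3 and 53.9% against 22.0% with IGHJ4. Within the IGHD2 genes it was 68.1% against 33.6%, 60.8% against 27.8%, 52.6% against 25.1% and 55.97% against 20.1%. IGHD4-1 had lower shares than these in iB-μMT, with 48.4% against 26.0% for IGHJ1, 38.8% against 20.9% for IGHJ2 and 44.5% against 22.8% for IGHJ4. For IGHD4-1 with IGHJ3 the share was 38.0% (n = 292) against 33.6% (n = 110), a difference of 4.38 points (-6.32 to 14.3).

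With the germline reading, in which a base counts as added unless the coding part of D or J holds it, fewer joints were direct and the ratio between the mice was larger. Direct joints made up 46.8% of IGHJ1 joints (437 of 933) in iB-μMT and 15.9% (151 of 951) in B6. The shares were 37.5% (813 of 2167) against 13.2% (242 of 1833) for IGHJ2, 27.8% (435 of 1563) against 11.8% (163 of 1387) for IGHJ3 and 39.4% (766 of 1944) against 12.2% (189 of 1553) for IGHJ4. The mean number of added bases by this reading was 1.76 against 3.15, 2.43 against 3.803, 2.06 against 3.53 and 1.99 against 3.44 for IGHJ1 to IGHJ4. The differences were -1.39, -1.37, -1.47 and -1.45 bases, closer together than by the aligner's positions.

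The order of the J genes changed with this reading. IGHJ1 led IGHJ2 in direct joints by 9.32 points (5.53 to 13.1) in iB-μMT, but in B6 by 2.68 points (-0.05 to 5.54), where the aligner's positions had given 11.5. In iB-μMT IGHJ3 had the lowest share, with IGHJ3 minus IGHJ4 at -11.6 points (-14.7 to -8.44) and IGHJ2 minus IGHJ3 at 9.69 points (6.65 to 12.7). In B6 the shares of IGHJ2, IGHJ3 and IGHJ4 were not apart, with all 3 intervals including 0.

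**Figure D3:**
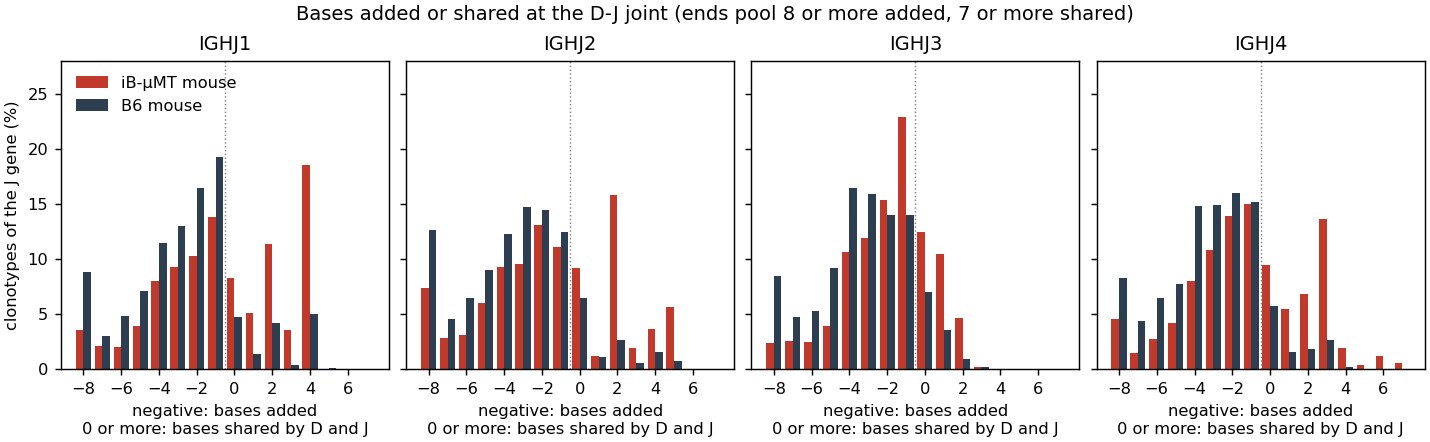
Share of the joints of each J gene (vertical axis, %) by the bases added between D and J (negative values) or, for direct joints, by the bases that D and J share there (0 or more), iB-μMT mouse in red and B6 mouse in dark blue. Bars at the ends pool 8 or more added and 7 or more shared bases. In iB-μMT the highest bar of direct joints is at 4 shared bases for IGHJ1 (18.5%), 2 for IGHJ2 (15.9%), 0 for IGHJ3 (12.5%) and 3 for IGHJ4 (13.6%).

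Many direct joints lay on bases that D and J share, and their share differed between J genes. The sequence does not show which segment gave the shared bases, so different losses from D and J can give the same joint. Whether such joints exceed those expected without pairing of the ends was not tested. Joints on 3 or more shared bases made up 22.1% of IGHJ1 joints in iB-μMT (206 of 933) and 5.57% in B6 (53 of 951), a difference of 16.5 points (13.5 to 19.6). For IGHJ4 they made up 17.6% (343 of 1944) against 2.96% (46 of 1553), a difference of 14.7 points (12.8 to 16.6). For IGHJ2 they made up 11.2% (243 of 2167) against 2.89% (53 of 1833), a difference of 8.32 points (6.79 to 9.87). IGHJ3 had 3 such joints of 1563 in iB-μMT and 3 of 1387 in B6. Within the 8 bases compared above it shares CTGG, 4 bases, with IGHD4-1. With IGHD1-1, IGHD2-3, IGHD2-4, IGHD2-5, IGHD2-7, IGHD2-8 and IGHD3-2 it shares runs of at most 3 bases. Joints on 4 or more shared bases numbered 173 against 49 for IGHJ1 and 78 against 4 for IGHJ4, and joints on 5 or more numbered 122 against 14 for IGHJ2.

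Among direct joints alone, those on 3 or more shared bases were 47.1% for IGHJ1 in iB-μMT and 35.1% in B6, 12.04 points apart (2.88 to 20.6). They were 44.8% against 24.3% for IGHJ4, 20.4 points apart (12.98 to 27.04), and 29.9% against 21.9% for IGHJ2, 7.99 points apart (1.59 to 13.7). For IGHJ3 they were 0.69% against 1.84% (-1.15 points, -4.61 to 0.64). The 5 commonest direct joints held 55.4% of all direct joints of IGHJ1 in iB-μMT, 36.7% of those of IGHJ4, 30.8% of those of IGHJ2 and 22.3% of those of IGHJ3.

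The commonest joint of IGHJ1 in both mice put IGHD1-1 onto IGHJ1 at CTAC, as shown above. It was found in 97 clonotypes with 50 different V genes in iB-μMT, 10.1% of IGHJ1 clonotypes with a D (95% interval 8.39 to 12.2), and in 36 clonotypes with 26 V genes in B6, 3.63% (2.63 to 4.98). Among the joints of IGHD1-1 to IGHJ1 alone, the shares were further apart, 33.1% (97 of 293) against 7.44% (36 of 484). The same bases joined IGHD2-3 to IGHJ1 in 57 clonotypes (34.5% of that pair) against 5 (6.25%). IGHD4-1 was joined to IGHJ1 on AC in 33 clonotypes (17.2% of that pair) against 7 (9.59%), and here the interval of the difference was -2.46 to 15.3 points.

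For IGHJ2, the commonest of these joints put IGHD1-1 onto IGHJ2 at AC, in 56 clonotypes (12.2% of that pair) against 13 (2.12%), and at CTAC the same pair was joined in 43 (9.35%) against 13 (2.12%). The whole ACTAC of IGHD2-8 overlapped with that of IGHJ2 in 55 clonotypes with 37 V genes in iB-μMT and in 4 clonotypes in B6, 26.4% against 3.57% of that pair. IGHD2-3 joined IGHJ2 on the same bases in 48 clonotypes (14.8%) against 6 (2.82%). For IGHJ4, TAC joined IGHD1-1 in 69 clonotypes (14.9%) against 9 (1.74%) and IGHD2-8 in 59 clonotypes (29.9%) against 8 (7.84%). For IGHJ3, the commonest joint with 2 or more shared bases was that of IGHD1-1 on CT, in 19 clonotypes (6.46%) against 6 (1.45%). These joints come from the 4 commonest of each J gene over both mice among those on 2 or more shared bases, a limit set after the values had been seen, so commoner joints on fewer shared bases are not among them.

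**Figure D4:**
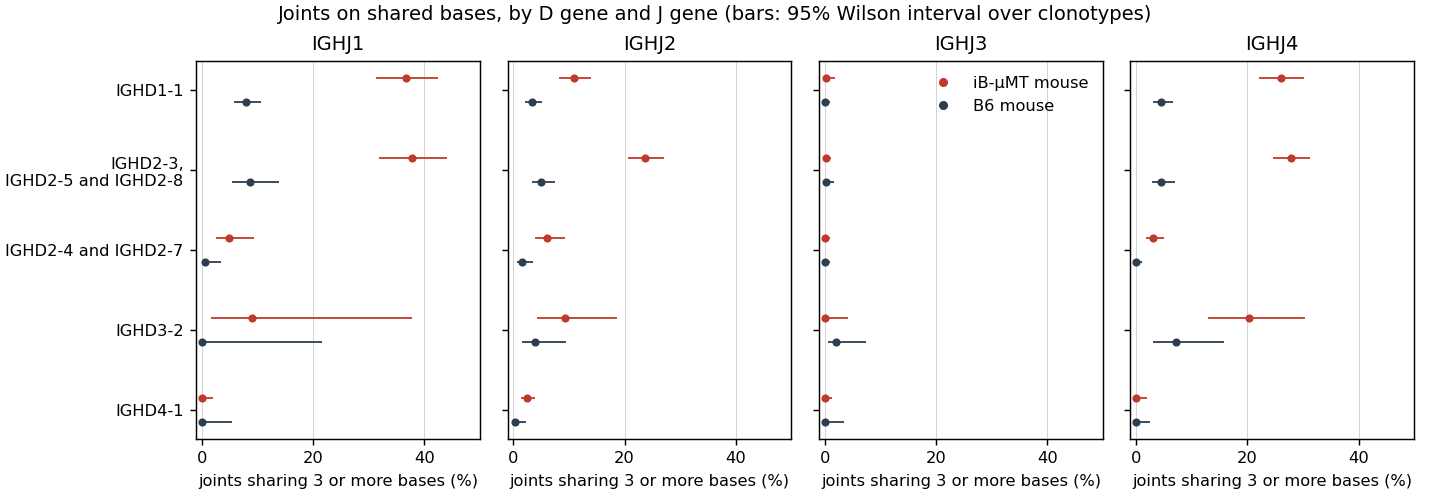
Share of joints on 3 or more bases that D and J share (horizontal axis, %), by D gene (rows) and J gene (panels), iB-μMT mouse in red and B6 mouse in dark blue, with 95% Wilson intervals over clonotypes. The iB-μMT share reaches 37.8% with IGHJ1 and 27.8% with IGHJ4 for IGHD2-3, IGHD2-5 and IGHD2-8, while for IGHD4-1 it is 0 with IGHJ1, IGHJ3 and IGHJ4.

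Such joints can occur only where D and J both hold the bases, so their spread over D genes partly follows from the definition. Grouped by the end of D, they are given here for each mouse. With IGHD2-3, IGHD2-5 and IGHD2-8, which end in ACTAC, they made up 37.8% of IGHJ1 joints against 8.72%, 23.7% of IGHJ2 joints against 4.99% and 27.8% of IGHJ4 joints against 4.47%. With IGHD1-1, which ends in GCTAC, they made up 36.7% against 7.86%, 10.8% against 3.35% and 26.0% against 4.53%. With IGHD3-2, which ends in GGCTAC, they made up 20.3% of the IGHJ4 joints (16 of 79) against 7.25% (5 of 69). For the other J genes IGHD3-2 gave 1 of 11 against 0 of 14 with IGHJ1, 6 of 65 against 4 of 104 with IGHJ2 and 0 of 86 against 2 of 95 with IGHJ3, and each interval of the difference included 0. With IGHD2-4 and IGHD2-7, which end in ACGAC, they made up at most 6.06% with any J gene in iB-μMT and at most 1.51% in B6. IGHD4-1 had 0 such joints with IGHJ1, IGHJ3 or IGHJ4 in either mouse, and 14 of 582 against 1 of 247 with IGHJ2. IGHD4-1 does share the inner run ACTGG with IGHJ1 and CTGG with IGHJ3. A joint on such a run leaves few bases by which the aligner could name the D gene, the shortest named being 5 bases. Among the clonotypes without a D, the 3 bases of IGHD4-1 next to such a shared run were found in 1 of 153 for IGHJ1, 10 of 366 for IGHJ2, 1 of 174 for IGHJ3 and 1 of 314 for IGHJ4 in iB-μMT, and in 0 of 125, 0 of 315, 2 of 173 and 0 of 220 in B6. The 0 of 125, 0 of 315 and 0 of 220 allow shares of up to 2.98%, 1.205% and 1.72% (Wilson). Direct joints of IGHD4-1, on fewer shared bases, were still the larger share in iB-μMT with IGHJ1 (33.3% against 19.1%), IGHJ2 (24.6% against 12.96%) and IGHJ4 (29.9% against 17.8%).

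CDR3 was shorter in iB-μMT for each J gene, by less than 1 residue. IGHJ1 clonotypes had a CDR3 of 14.6 ± 2.03 amino acids (SD over clonotypes) against 15.1 ± 2.39, and IGHJ4 clonotypes 14.7 ± 2.16 against 14.9 ± 2.66. IGHJ2 clonotypes had 12.6 ± 2.23 against 13.02 ± 2.57, and IGHJ3 clonotypes 13.01 ± 2.16 against 13.4 ± 2.51. The differences were -0.50 (-0.68 to -0.31), -0.44 (-0.58 to -0.30), -0.40 (-0.55 to -0.24) and -0.17 residues (-0.32 to -0.02) for IGHJ1 to IGHJ4, and each was smaller than the SD over clonotypes. IGHJ1 was longer than IGHJ2 by 2.00 residues in iB-μMT and by 2.05 in B6, more than any of these gaps between the mice. Some pairs of J genes were closer. IGHJ1 minus IGHJ4 was -0.13 residues (-0.28 to 0.02) in iB-μMT and 0.20 (0.01 to 0.38) in B6. IGHJ2 minus IGHJ3 was -0.42 residues in iB-μMT and -0.38 in B6, close to the gaps between the mice.

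**Figure D5:**
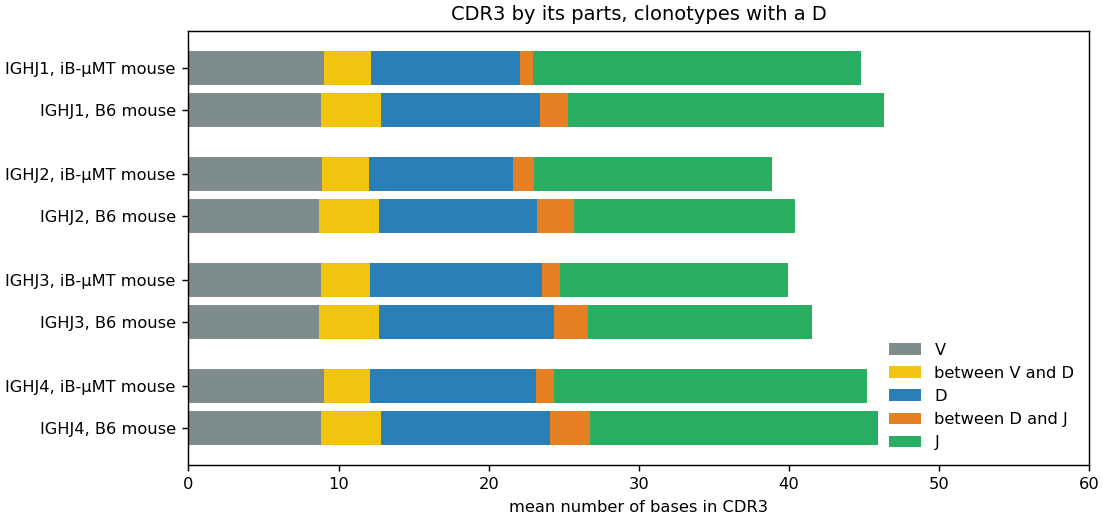
Mean number of CDR3 bases (horizontal axis, from 0) given by V, by the bases between V and D, by D, by the bases between D and J, and by J, as the aligner placed them, for clonotypes with a D gene of each J gene in each mouse. The J part, which includes flank bases credited to J, is the longest in every bar. It is longer in iB-μMT for all 4 J genes (20.9 against 19.1 bases for IGHJ4), while both inserted parts are shorter.

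The parts of CDR3, as the aligner placed them, moved in opposite directions. Bases of J here are all those credited to J, the flank bases described above included. Over clonotypes with a D, IGHJ4 carried 1.47 fewer bases between D and J and 0.94 fewer between V and D in iB-μMT. It carried 1.72 more bases of J, and the whole CDR3 was 0.71 bases shorter. The J loss of the same IGHJ4 clonotypes differed by less, -1.33 bases. IGHJ1 carried 0.98 and 0.89 fewer inserted bases and 0.67 fewer bases of D, with 0.76 more bases of J, and was 1.57 bases shorter. IGHJ2 was 1.59 bases shorter with 1.09 more bases of J, and IGHJ3 was 1.61 bases shorter with 0.26 more. With clonotypes compared within D genes and averaged, the CDR3 differences were -0.13 residues for IGHJ1, -0.28 for IGHJ2, -0.27 for IGHJ3 and -0.17 for IGHJ4.

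CDR3 ended in the whole amino acid run of its J gene more often in iB-μMT. YWYFDVW closed 46.2% of IGHJ1 clonotypes (512 of 1109) against 21.9% (245 of 1117), a difference of 24.2 points (20.4 to 27.99). YYAMDYW closed 46.1% of IGHJ4 clonotypes against 29.1%, with a difference of 16.9 points (13.99 to 19.8). YFDYW closed 52.9% of IGHJ2 clonotypes against 38.3% (14.5 points, 11.7 to 17.3), and WFAYW closed 51.2% of IGHJ3 clonotypes against 37.1% (14.1 points, 10.7 to 17.3). The last 5 residues alone were kept in most clonotypes of the long J genes, YFDVW in 97.3% against 85.8% of IGHJ1 and AMDYW in 97.4% against 88.7% of IGHJ4. In B6, 6.00% of IGHJ1 clonotypes ended in CFDVW instead, mostly with few reads, as described below. For IGHJ3 the commonest replacement of its first residue was glycine, GFAYW, in 13.1% of clonotypes against 15.5%, and for IGHJ2 of iB-μMT it was aspartate, DFDYW, in 4.78% against 3.29%.

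Some rare ends of B6 had few reads. CFDVW closed 67 IGHJ1 clonotypes of B6 with a median of 4 reads, where the median of the gene was 171, and 1 clonotype of iB-μMT. CFDYW closed 77 IGHJ2 clonotypes with a median of 7 reads against 7 clonotypes in iB-μMT, and 69 IGHJ3 clonotypes of B6 ended in a stop codon before FAYW, with a median of 6 reads, against 2. In all, 5.72% of IGHJ3 clonotypes of B6 held a stop codon (92 of 1607), against 0.71% to 1.58% for its other J genes and 0.35% to 0.96% for all J genes of iB-μMT. Of the 67, 77 and 69 clonotypes of B6 with these ends, 65, 65 and 64 held a mismatch to J. All stay in the counts above. With at least 5 reads required, each of the 32 differences by J gene that could be recomputed stayed inside its 95% interval. That cut leaves many of these ends in, since 41, 32 and 34 of them had at most 5 reads. Merging clonotypes 1 mismatch apart moved 2 of the 32 beyond the interval, both of IGHJ2. Its whole motifs then differed by 11.7 points and its CDR3 length by -0.59 residues.

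The V genes in front of each J gene differed between the mice in the same way for all 4. IGHV2 and IGHV5, the families closest to the D genes, took 39.0% of IGHJ1 clonotypes against 15.6%, 35.7% of IGHJ2 against 12.8%, 40.98% of IGHJ3 against 15.2% and 44.3% of IGHJ4 against 17.6%. The differences lay between 22.9 and 26.7 points, and each interval left out 0. IGHV2 alone was the most frequent with IGHJ4 in both mice, 12.5% against 4.36%, and the least with IGHJ2, 5.17% against 1.26%. IGHV5-4 was the commonest V gene of every J gene in iB-μMT, at 10.3% of IGHJ1, 13.9% of IGHJ2, 15.01% of IGHJ3 and 11.5% of IGHJ4, against 3.04%, 4.01%, 3.86% and 2.72% in B6. In the B6 mouse IGHV1-26 was the commonest with every J gene, at 4.14% to 5.29%, against 1.46% to 1.89% in iB-μMT. The next V genes with IGHJ2 and IGHJ3 in iB-μMT were IGHV5-6 (7.40% and 7.20%) and IGHV9-3 (6.75% and 6.58%), with IGHJ4 they were IGHV5-6 (6.92%) and IGHV2-2 (6.75%), and with IGHJ1 they were IGHV3-6 (5.05%) and IGHV5-6 (4.96%).

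Single clonotypes weighed little in most of these genes. The clonotype with most reads was 0.55% of IGHJ1 reads, 0.35% of IGHJ3 reads and 0.29% of IGHJ4 reads in iB-μMT, and 0.24% to 0.51% of each J gene's reads in B6. IGHJ2 of iB-μMT was the exception, with a clonotype of IGHV3-6 and IGHD2-3 at 5930 reads, 1.86% of IGHJ2 reads. Its CDR3 and those of the largest IGHJ1 and IGHJ4 clonotypes of iB-μMT are shown because all of them are direct joints on shared bases, with the bases credited to J in capitals.
Largest IGHJ1 clonotype, IGHV1-62-3 and IGHD4-1: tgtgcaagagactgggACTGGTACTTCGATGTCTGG
Largest IGHJ2 clonotype, IGHV3-6 and IGHD2-3: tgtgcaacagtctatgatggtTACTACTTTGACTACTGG
Largest IGHJ4 clonotype, IGHV1-53 and IGHD1-1: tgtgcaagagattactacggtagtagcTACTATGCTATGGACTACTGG
D and J share 2 bases in the first, 5 in the second and 3 in the third. The largest IGHJ1 clonotype of B6, with IGHV1-52 and IGHD1-1 at 1132 reads, had 1 added base between D and J by the aligner, and its largest IGHJ3 clonotype, with IGHV1-26 and IGHD2-4 at 1058 reads, had 2. The largest IGHJ2 clonotype of B6, with IGHV1-49 and IGHD1-1 at 1558 reads, was a direct joint on 2 shared bases. The largest IGHJ3 clonotype of iB-μMT (705 reads) and the largest IGHJ4 clonotype of B6 (944 reads) had no D hit.

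Clonotypes identical in CDR3 bases, V and J gene in both mice numbered 34, with 4 of IGHJ1, 11 of IGHJ2, 12 of IGHJ3 and 7 of IGHJ4. They are few beside the 7794 clonotypes of iB-μMT and 6781 of B6. Of the 34, 14 had a D gene and no base between D and J. Over all clonotypes with a D, such joints made up 49.8% to 64.3% by J gene in iB-μMT and 21.5% to 41.1% in B6. The 14 are therefore not read as an excess.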

How the data were processed

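BCR heavy chain libraries were made from RNA of sorted naïve FO B cells by 5′ RACE and sequenced on an Illumina MiSeq. The authors ran MiXCR (version 3.0.13) and deposited, per clonotype, the read count and the fraction of all reads it makes up, with gene hits, alignments and the positions where V, D and J end. The reference used by the aligner is not given in the sources used here, while the labels name mm10. Light chain libraries hold no IGHJ gene and were not used. The depth was 909806 reads (iB-μMT) and 1383617 reads (B6), and 3 reads correspond to 0.00033% and 0.000217%, a floor not used as a filter. Precision is set by the clonotypes of each J gene, 1109 to 2594.

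Counts were used as deposited and each clonotype was counted once by its first J hit. Losses of J were read from the deposited positions, and inserted bases and D partners over clonotypes with a D hit (87.1% and 87.7%). In a second reading, chosen after seeing the data, germline D and J were taken from mismatch-free alignments, J was the match running back from its tryptophan codon (1 mismatch was bridged when at least 5 matching bases followed), and D was extended base by base. This reading covered 933 and 951, 2167 and 1833, 1563 and 1387, and 1944 and 1553 clonotypes of IGHJ1 to IGHJ4 for iB-μMT and B6. Shares have 95% Wilson intervals, differences of shares Newcombe intervals, and differences of means normal intervals from standard errors. Named were all 4 J genes, D genes with at least 20 clonotypes in both mice together with a J gene, the 3 commonest V genes and the largest clonotype per J gene and mouse. Members and lists were chosen with earlier results of these data known.

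Alternatives were weighting by reads, at least 5 reads, equal read numbers, merging clonotypes 1 mismatch from one with at least 10 times the reads, no stop codon, a single best J or D hit, at least 8 bases of D, averaging within D genes, clonotypes with a D only, no J mismatch, a 2-fold threshold, and the second reading. The second reading was also run on simulated joints of the longer D genes, without IGHD4-1 and without mismatches. The conditions that run had to meet were fixed by how the joints were built, so no support is drawn from it. Python 3.11.15, NumPy 2.4.6, pandas 2.3.3 and matplotlib 3.10.9 were used. RefSeq positions are those of GRCm38.p6, the same build as mm10.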

Additional observations from a re-analysis of the deposited data

How the results depend on the processing

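Of 284 values under alternative settings, over 37 results, 253 stayed inside the 95% interval of the reported difference or within 1.5 times the reported count, 31 moved beyond it, and 0 reversed. The 253 include 32 values with a single best J hit, which could not move because no best J hit was tied. With the D and J boundaries set by germline coding bases, the difference in added D-J bases was -1.39 for IGHJ1, -1.37 for IGHJ2 and -1.47 for IGHJ3, and that in direct joints was 31.0 points for IGHJ1, 16.1 for IGHJ3 and 27.2 for IGHJ4. Giving shared bases to D left a J loss difference of -0.45 bases for IGHJ2 and -0.62 for IGHJ4. Without J mismatches, J loss differed by -1.29 bases for IGHJ1 and -1.28 for IGHJ4, added bases of IGHJ1 by -1.40, joints of IGHJ1 without an added base by 34.3 points, and the whole end motif of IGHJ4 by 12.99 points. Averaged within D genes, the J loss of IGHJ4 differed by -1.24 bases, and CDR3 length by -0.13 residues for IGHJ1 and -0.28 for IGHJ2. Merging clonotypes 1 mismatch apart gave -0.59 residues and 11.7 points of whole motifs for IGHJ2. Weighting by reads gave 9.15 points of whole motifs for IGHJ3, and IGHV2 and IGHV5 differences of 18.3 points for IGHJ2 and 22.5 for IGHJ3. With at least 8 bases of D, the IGHD4-1 difference of IGHJ1 was 8.27 points, and 2, 3, 3 and 0 pairs passed 1.5-fold for IGHJ1 to IGHJ4, 8 in all. Past 2-fold, 5 pairs were called in all, 1 each for IGHJ2 and IGHJ3 and 0 for IGHJ4. The cause was not tested for these. No paired analysis was possible because the groups hold 1 library each and share fewer than 2 replicate numbers, and for the same reason no replicate could be left out.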
